A study of Homo sapiens with 6 samples.

Results

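The ubiquitin-specific proteases (USPs) were followed in K562 cells given 3FM-dC and THU. The family was taken as all gene symbols made of USP and a number, with or without a final X. USP7, USP18 and the 24 repeated USP17L symbols were left out. This rule found 48 of 23710 gene symbols. It reads symbols alone and used no measured value, but members were chosen with earlier results of these data known. The treated group received 20 µM 3FM-dC and 2 mM THU for 24 h, and the control group received DMSO, the solvent of both, for 24 h, with 3 libraries per group. Both groups were of the same human line, K562, which came from a chronic myelogenous leukaemia, at passages 13 to 16 in medium with 10% serum. No library had 3FM-dC or THU alone, so the compounds cannot be told apart. The series title names a small molecule that activates TET2, and the design asked how 3FM-dC alters gene expression. The labels do not state whether replicates came from separate cultures, so each p-value reflects library-to-library spread alone, and that spread may be technical.

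USPs are cysteine proteases that remove ubiquitin from proteins, and they form the most numerous family of deubiquitinases. By trimming ubiquitin chains they can save a protein from the proteasome, alter its traffic through endosomes, or reset a signal on a histone or a repair factor. Several work with a partner: WDR48 (UAF1) activates USP1, USP12 and USP46, and the ENY2, ATXN7 and ATXN7L3 proteins activate USP22 within the SAGA coactivator complex.

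Between 18408826 and 22750278 counts fell in genes per library. All 11 markers chosen for K562 identity, among them globin genes, GATA1, BCR and ABL1, passed the filter on low counts. Of these 11, 8 fell, 2 rose and BCR did not pass, and their summed level went from between 7694 and 7889.7 CPM (counts scaled to library size) in DMSO to between 4233 and 4425 CPM in treated cells. The part of these marker changes in the results below was not tested. Of 15 markers of other cell types MS4A1, CDH5 and KRT5 had no count in any library, while 8 passed the filter, among them EPCAM, PTPRC and LYZ. The summed level of these 15 lay between 216 and 225 CPM in the DMSO group and between 197 and 208 CPM in treated cells, mostly from EPCAM and PTPRC, and its part in the results was not tested.

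Promoters of changed members are shown for their CG dinucleotides, the sites at which DNA is methylated. The stretches are the 150 bases before the start site in the RefSeq-based promoter table (build GRCh38.p14), 5′ to 3′, with every CG in capitals. USP35 (chr11:78188769-78188918, plus strand) and USP40 (chr2:233566783-233566932, minus strand) rose, and USP2 (chr11:119364209-119364358, minus strand) and USP15 (chr12:62260254-62260403, plus strand) fell. Among changed members with exactly 1 promoter in the table, they had the 2 largest changes in each direction.
USP35: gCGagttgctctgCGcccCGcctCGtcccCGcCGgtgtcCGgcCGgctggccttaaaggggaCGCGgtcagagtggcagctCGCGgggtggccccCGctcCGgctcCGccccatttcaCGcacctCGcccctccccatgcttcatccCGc
USP40: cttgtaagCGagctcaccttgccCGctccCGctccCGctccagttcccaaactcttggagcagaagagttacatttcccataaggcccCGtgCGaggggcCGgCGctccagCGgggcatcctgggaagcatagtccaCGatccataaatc
USP2: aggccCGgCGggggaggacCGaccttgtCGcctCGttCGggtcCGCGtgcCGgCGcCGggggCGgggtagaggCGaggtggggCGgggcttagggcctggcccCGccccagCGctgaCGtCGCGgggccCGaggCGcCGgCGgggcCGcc
USP15: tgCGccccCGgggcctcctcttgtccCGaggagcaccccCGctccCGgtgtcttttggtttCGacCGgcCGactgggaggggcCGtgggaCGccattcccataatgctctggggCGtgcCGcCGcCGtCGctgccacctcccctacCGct

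These stretches hold 18 (USP35), 10 (USP40), 24 (USP2) and 16 (USP15) CG dinucleotides. The table matched 38 of the 48 members by symbol, with 50 promoters of 300 bases, 250 before and 50 after the start. Their median was 29 CG dinucleotides per promoter, against 25 for the 13001 promoters of the 8946 tested genes matched and 14 for all 35116 promoters. It was 29 for 13 promoters of 9 members that rose and 32.5 for 14 promoters of 12 members that fell. For 18 promoters of 14 tested members that did not pass it was 34.5. All 3 medians lay above that of tested genes at large, and they are given with no test. Single promoters varied widely, from 1 to 47 CG dinucleotides for members that rose and from 20 to 44 for members that fell. USP54, the member that rose most, has 4 promoters in the table, with 1, 3, 2 and 17 CG dinucleotides, all below the median of tested genes. Of the members printed above, USP40 also lay below that median, with 21 in its 300 bases. DNA methylation was not analysed here.

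Short motifs were also searched on both strands. CCAAT, the CCAAT box, occurred in the promoters of 11 of 38 members (28.9%), against 43.6% of tested genes and 39.7% of all genes in the table. The E-box CACGTG occurred in 4 (10.5%), against 12.9% of tested and 8.78% of all genes. TGACGTCA, the cyclic AMP response element, occurred in no member and in 3.95% of tested and 2.25% of all genes. The amino acid response core TGATGNAAN occurred in 1 member, USP50, which did not pass the count filter, and in 2.63% of tested and 4.45% of all genes. Its narrower form TGATGCAA, which overlaps it, occurred in no member and in 0.727% of tested and 1.08% of all genes. None of these motifs was in the printed stretches.

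Of the 48 members 43 passed the filter on low counts and were tested, and the family split between rises and falls. The mean ± SD of USP54 over 3 libraries went from 30.8 ± 0.962 to 54.0 ± 1.69 CPM, a 1.75-fold rise, and that of USP22, the protease of the SAGA complex, from 257 ± 7.14 to 334 ± 6.88 CPM. USP2, which removes ubiquitin from cyclin D1, fell 2.29-fold, from 34.1 ± 2.85 to 14.9 ± 0.876 CPM, and USP15, a regulator of TGF-beta signalling, from 315 ± 2.34 to 185 ± 7.12 CPM. With p-values of the edgeR quasi-likelihood test adjusted by Benjamini-Hochberg over all 12339 tested genes, 25 of the 43 changed at an adjusted p under 0.05 (58.1%), 11 higher and 14 lower. Among all tested genes 66.4% changed, 33.8% higher and 32.7% lower, so the members' counts show nothing particular to the family. The median log2 fold change was -0.01 for the members and 0.01 for all tested genes. With libraries scaled by total counts, 16 members were higher and 12 lower, against 41.0% and 25.8% of all tested genes (66.8% in all). DESeq2 called 10 higher and 14 lower, against 31.7% and 31.7% (63.4% in all). Against a minimum fold change of 1.2, edgeR called 5 higher and 9 lower, against 21.4% and 17.2% (38.6% in all), and with the replicate number as a block 11 and 14, against 33.2% and 32.1% (65.2% in all).

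Changes within the family were mostly small. Changes of at least 1.5-fold were found for 6 of 43 members (14.0%), against 25.4% of all tested genes. These were USP54 and USP35 upward and USP2, USP15, USP21 and USP24 downward. Only USP2 changed by 2-fold or more, against 12.7% of all tested genes, and none of these shares was compared by a test. The CPM values did not overlap between groups for 28 members (65.1%), 12 of them higher and 16 lower in treated cells, against 70.0% of all tested genes (35.5% higher and 34.5% lower). Members of the family took between 0.432% and 0.438% of all counts in genes in the DMSO libraries and between 0.409% and 0.419% in the treated ones. In these bulk libraries, fewer cells of a type and less RNA per cell cannot be told apart.

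**Figure D1:**
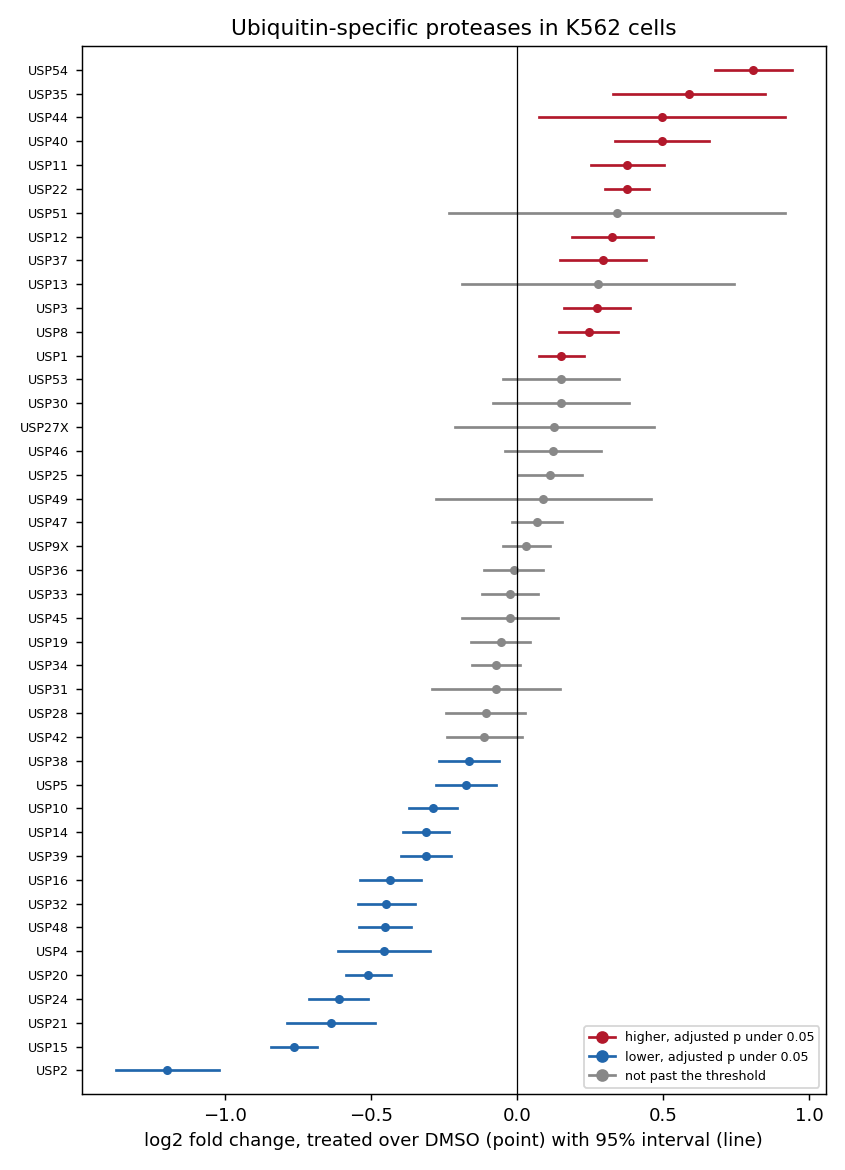
Log2 fold change of treated over DMSO for each of the 43 tested members (points) with 95% intervals (lines), ordered by size, with 3 libraries per group. Red members rose and blue members fell at an edgeR adjusted p under 0.05. USP54 (0.81) stands at the top and USP2 (-1.197) at the bottom.

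The counts by role that follow can be read beside all tested genes, of which 33.8% were higher and 32.7% lower. No count by role was compared by a test, and the role lists were set with earlier results of these data known. USPs that act on histones went both ways. Of 8 tested members USP22, USP3 and USP44 rose, USP21 and USP16 fell, and USP27X, USP49 and USP51 did not pass. USP22 had 256, 265 and 251 CPM in the DMSO libraries and 332, 329 and 342 CPM in the treated ones. Every treated library lay above every DMSO library (log2 fold change 0.38, SE 0.04, edgeR adjusted p = 4.71e-10). USP27X and USP51, close relatives of USP22, had levels of 2.41 ± 0.0522 and 0.554 ± 0.231 CPM per kb of exonic length in DMSO cells, against 37.8 ± 1.05 for USP22. USP27X had 6.33, 6.45 and 6.17 CPM in the DMSO libraries and 5.22, 8.05 and 7.36 CPM in the treated ones (log2 fold change 0.13, 95% interval -0.21 to 0.47, edgeR adjusted p = 0.513). USP51 had 2.11, 3.59 and 1.63 CPM in the DMSO libraries and 3.79, 2.86 and 2.58 CPM in the treated ones (log2 fold change 0.34, 95% interval -0.23 to 0.92, edgeR adjusted p = 0.287). In both the groups overlapped, and these intervals hold changes as large as that of USP22. Without DMSO replicate 2, USP51 passed with a log2 fold change of 0.72 (edgeR adjusted p = 0.0422, over a range of 0.0422 to 0.769).

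USP21, which removes ubiquitin from histone H2A, had 53.9, 46.6 and 46.9 CPM in the DMSO libraries and 31.9, 28.7 and 34.2 CPM in the treated ones (log2 fold change -0.64, SE 0.07, edgeR adjusted p = 1.46e-08). The groups were fully apart, with each treated value under 35 CPM. USP16, another H2A protease, fell by 0.43 on the log2 scale, while USP3, also an H2A protease, rose by 0.27. USP44, which acts on histone H2B and in the mitotic checkpoint, had 3.50, 4.26 and 3.00 CPM in the DMSO libraries and 5.22, 5.76 and 4.13 CPM in the treated ones. The lowest treated library lay under the highest DMSO library (log2 fold change 0.50, SE 0.21, edgeR adjusted p = 0.0346). This call was lost with DESeq2 (adjusted p = 0.0514) and in edgeR without DMSO replicate 1 (0.0775), DMSO replicate 3 (0.156), treated replicate 1 (0.0767) or treated replicate 2 (0.141), over a range of adjusted p from 0.0133 to 0.156. USP49, an H2B protease, lay at 6.82 ± 1.59 CPM in the DMSO group and 7.28 ± 1.68 CPM in treated cells and did not pass (log2 fold change 0.09, 95% interval -0.28 to 0.46, edgeR adjusted p = 0.674).

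Among USPs of DNA repair, replication and the cell cycle, USP1, USP11 and USP37 rose and USP24 and USP48 fell, while USP28 and USP47 did not pass and USP29 was not tested. USP1 removes ubiquitin from PCNA and FANCD2. It had 206, 199.7 and 198 CPM in the DMSO libraries and 221, 223 and 226 CPM in the treated ones. The treated values were all above the DMSO values, by a small margin (log2 fold change 0.15, SE 0.04, edgeR adjusted p = 0.000934). USP11, linked to homologous recombination, had 51.6, 59.6 and 53.4 CPM in the DMSO libraries and 73.5, 73.4 and 67.0 CPM in the treated ones (log2 fold change 0.38, SE 0.06, edgeR adjusted p = 3.39e-06). USP37, which acts on cyclin A, rose by 0.29 on the log2 scale. In the GENCODE 29 annotation 32.8% of its exonic bases overlap VIL1 on the opposite strand. VIL1 moved the other way, with 40, 45 and 58 counts in DMSO and 4, 7 and 11 in treated libraries, far below USP37, which had at least 554 counts in every library.

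USP24, a very large protease, had 216, 218 and 204 CPM in the DMSO libraries and 148, 125 and 145 CPM in the treated ones. All treated libraries lay below all DMSO ones (log2 fold change -0.61, SE 0.05, edgeR adjusted p = 1.07e-11). USP48, which acts on the histone H2A sites that BRCA1 ubiquitinates, fell by 0.45 on the log2 scale. USP28, which stabilises MYC, had 40.4, 39.1 and 37.9 CPM in the DMSO libraries and 36.2, 36.8 and 35.9 CPM in the treated ones. The groups did not overlap, yet the difference was small and did not pass (log2 fold change -0.11, 95% interval -0.24 to 0.03, edgeR adjusted p = 0.154). USP25, the close relative of USP28, had 84.2, 85.1 and 79.5 CPM in the DMSO libraries and 85.4, 87.1 and 96.4 CPM in the treated ones and also did not pass (log2 fold change 0.11, 95% interval 0.00394 to 0.22, edgeR adjusted p = 0.0629). USP47, linked to base excision repair, was at 138 ± 2.60 and 144 ± 2.17 CPM (log2 fold change 0.07, 95% interval -0.02 to 0.15, edgeR adjusted p = 0.156).

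USP12 and USP46, near relatives that share the activator WDR48 with USP1, are described together. USP12 had 34.8, 33.2 and 36.5 CPM in the DMSO libraries and 42.8, 46.3 and 41.9 CPM in the treated ones (log2 fold change 0.33, SE 0.07, edgeR adjusted p = 0.000121). USP46 had 27.6, 28.0 and 23.9 CPM in the DMSO libraries and 29.1, 27.3 and 29.8 CPM in the treated ones (log2 fold change 0.12, 95% interval -0.04 to 0.29, edgeR adjusted p = 0.184). USP12 thus rose without overlap, whereas the USP46 groups overlapped and its interval included both no change and most of the change of USP12. The difference between them was not tested. WDR48 itself was at 79.5 ± 0.249 and 82.1 ± 2.78 CPM (log2 fold change 0.05, 95% interval -0.06 to 0.15, edgeR adjusted p = 0.424), and WDR20, which joins the USP12 and USP46 complexes, did not pass either (log2 fold change -0.03, 95% interval -0.22 to 0.17, edgeR adjusted p = 0.827).

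Of the 3 USPs of ubiquitin recycling, USP14 and USP5 fell and USP13 did not pass. USP14, which trims ubiquitin on the proteasome, had 352, 339 and 326 CPM in the DMSO libraries and 285, 265 and 270.2 CPM in the treated ones. In this gene every treated library was below every DMSO library (log2 fold change -0.31, SE 0.04, edgeR adjusted p = 4.96e-08). USP5, which takes apart free ubiquitin chains, had 126, 131 and 139 CPM in the DMSO libraries and 119, 109 and 123 CPM in the treated ones (log2 fold change -0.17, SE 0.05, edgeR adjusted p = 0.00281). With total counts the call of USP5 was lost (log2 fold change -0.08, edgeR adjusted p = 0.120, over a range of 0.000162 to 1, whose upper end is from the test against a minimum fold change of 1.2). USP13, the relative of USP5, had 2.39, 3.53 and 4.04 CPM in the DMSO libraries and 3.59, 4.95 and 3.61 CPM in the treated ones (log2 fold change 0.28, 95% interval -0.19 to 0.74, edgeR adjusted p = 0.287). Its groups overlapped, and its interval includes both no change and the change of USP5.

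**Figure D2:**
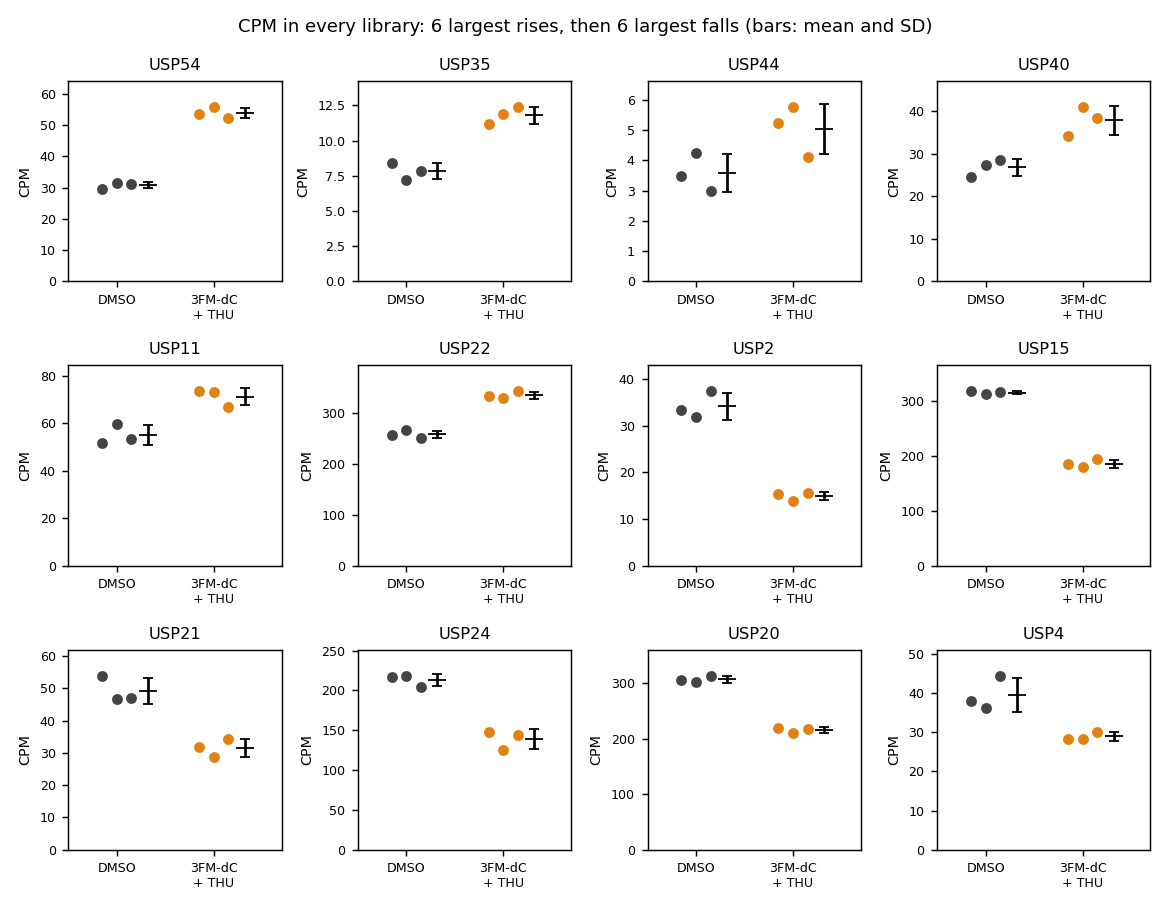
CPM (y axis, from 0) in each DMSO library (dark grey points) and each 3FM-dC plus THU library (orange points) for the 6 changed members that rose most and the 6 that fell most; black bars give mean and SD of 3 libraries. Groups are apart in every panel but that of USP44, and USP2 falls the furthest.

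Of 4 tested USPs of membrane traffic, USP20 and USP32 fell, USP8 rose and USP33 did not pass. USP20, which removes ubiquitin from membrane receptors and from HMG-CoA reductase, had 305, 301 and 313 CPM in the DMSO libraries and 219, 209 and 218 CPM in the treated ones. The groups were far apart (log2 fold change -0.51, SE 0.04, edgeR adjusted p = 1.12e-12). USP33, its close relative, had 97.8, 101 and 96.3 CPM in the DMSO libraries and 98.9, 94.6 and 97.0 CPM in the treated ones (log2 fold change -0.02, 95% interval -0.12 to 0.07, edgeR adjusted p = 0.687). The USP33 interval did not reach the change of USP20. USP32 fell by 0.45 on the log2 scale. USP8 sorts receptors on endosomes and had 78.5, 81.2 and 84.7 CPM in the DMSO libraries and 93.3, 97.0 and 99.4 CPM in the treated ones. Each treated library was above each DMSO one (log2 fold change 0.25, SE 0.05, edgeR adjusted p = 9.25e-05).

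USP6, a young gene that shares much of its sequence with USP32, was not tested: it had no count in the DMSO libraries and 6, 8 and 2 counts in the treated ones. USP32P1, a pseudogene of USP32, had 1 count in each DMSO library and 9, 15 and 27 counts in treated ones. Reads of these copies can be shared, and the values of USP6 are uncertain.

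None of the 3 USPs of the endoplasmic reticulum and mitochondria passed by edgeR. USP25 reached an unadjusted p under 0.05, the only 1 of the 3 to do so, and DESeq2 called none of them. USP30, which opposes mitophagy on the outer mitochondrial membrane, had 13.0, 11.3 and 12.9 CPM in the DMSO libraries and 13.4, 15.3 and 12.6 CPM in the treated ones. Its groups overlapped (log2 fold change 0.15, 95% interval -0.08 to 0.38, edgeR adjusted p = 0.249). USP19, which has a form anchored in the endoplasmic reticulum, was at 84.2 ± 2.59 and 81.0 ± 0.654 CPM (log2 fold change -0.06, 95% interval -0.16 to 0.05, edgeR adjusted p = 0.327). USP25, linked to degradation from the endoplasmic reticulum, did not pass in the reported fit but was called higher without treated replicate 1 (edgeR adjusted p = 0.0255) or treated replicate 2 (0.0298), over a range of 0.00110 to 1.

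Signalling USPs held the 2 largest falls of the family. Of 7 members USP2, USP15, USP4 and USP10 fell, none rose, and USP9X, USP31 and USP34 did not pass. This compares with 32.7% lower and 33.8% higher among all tested genes, and the split is a description with no test. USP9X, USP10, USP15 and USP34 averaged 100 CPM or more, where 57.8% of all tested genes were lower and 23.5% higher. Below that level, which held USP2, USP4 and USP31, 26.1% were lower and 36.5% higher. At an unadjusted p under 0.05, edgeR also found none higher. DESeq2 called none higher at an adjusted p under 0.05, and with total counts edgeR called 1 higher, USP9X. USP2 had 33.2, 31.8 and 37.3 CPM in the DMSO libraries and 15.3, 13.9 and 15.5 CPM in the treated ones. The highest treated value was below 16 CPM and the lowest DMSO value above 31 CPM (log2 fold change -1.197, SE 0.09, edgeR adjusted p = 8.87e-13).

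USP15, USP4 and USP11 are paralogues with a shared domain layout. USP15 had 317, 312 and 315 CPM in the DMSO libraries and 184, 179 and 193 CPM in the treated ones (log2 fold change -0.76, SE 0.04, edgeR adjusted p = 2.43e-16). USP4, which acts in TGF-beta signalling and on the spliceosome, had 38.0, 36.2 and 44.4 CPM in the DMSO libraries and 28.3, 28.2 and 30.1 CPM in the treated ones (log2 fold change -0.45, SE 0.08, edgeR adjusted p = 7.97e-06). The groups of both were apart, and both fell while USP11, described above, rose. SART3, which brings USP4 and USP15 to splicing complexes, fell too, from 153 ± 4.89 to 141 ± 3.75 CPM (log2 fold change -0.12, SE 0.04, edgeR adjusted p = 0.0151). That call was lost in edgeR without DMSO replicate 3 (adjusted p = 0.0690) or treated replicate 3 (0.0611), with the filter at a mean of 5 CPM (0.0981) and with total counts (0.545).

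USP10, which acts on p53 and binds the stress granule proteins G3BP1 and G3BP2, had 305, 322 and 312 CPM in the DMSO libraries and 271, 251 and 247 CPM in the treated ones. No treated library reached a DMSO one (log2 fold change -0.29, SE 0.04, edgeR adjusted p = 2.86e-07). Both partners also fell, G3BP1 from 281 ± 1.92 to 206 ± 14.0 CPM (log2 fold change -0.45) and G3BP2 by 0.31 on the log2 scale. USP9X, an X-linked protease of many substrates, had 241, 242 and 227 CPM in the DMSO libraries and 235, 244 and 246 CPM in the treated ones. The groups overlapped (log2 fold change 0.03, 95% interval -0.05 to 0.11, edgeR adjusted p = 0.476), although with total counts it was called higher (edgeR adjusted p = 0.00553, over a range of 0.00553 to 1). USP34, which acts in Wnt signalling, and USP31 had log2 fold changes of -0.07 and -0.07 and changed sign with total counts.

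In the nucleolus and the spliceosome, USP39 fell and USP36 did not pass. USP39, a splicing factor that lacks protease activity, had 183, 191 and 193 CPM in the DMSO libraries and 156, 146 and 154 CPM in the treated ones (log2 fold change -0.31, SE 0.04, edgeR adjusted p = 1.83e-07). All treated libraries were below the DMSO ones. USP36, a nucleolar protease of ribosome assembly, had 79.1, 78.2 and 78.4 CPM in the DMSO libraries and 78.6, 77.1 and 78.2 CPM in the treated ones. These values lay within a narrow band in all 6 libraries (log2 fold change -0.01, 95% interval -0.11 to 0.09, edgeR adjusted p = 0.850), and its sign turned with total counts and with the filter at a mean of 5 CPM.

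Among members with less settled roles, 3 of 7 tested rose, USP38 fell and USP42, USP45 and USP53 did not pass. USP54 had 29.7, 31.4 and 31.2 CPM in the DMSO libraries and 53.6, 55.8 and 52.5 CPM in the treated ones. The lowest treated value was well above the highest DMSO value (log2 fold change 0.81, SE 0.06, edgeR adjusted p = 6.42e-12). USP35 had 8.43, 7.23 and 7.85 CPM in the DMSO libraries and 11.2, 11.9 and 12.4 CPM in the treated ones (log2 fold change 0.59, SE 0.13, edgeR adjusted p = 0.000180). USP40 had 24.6, 27.4 and 28.5 CPM in the DMSO libraries and 34.1, 41.0 and 38.5 CPM in the treated ones (log2 fold change 0.50, SE 0.08, edgeR adjusted p = 3.00e-06). All 3 genes thus rose without overlap, from modest levels. USP38 fell by 0.17 on the log2 scale, a call lost with total counts (edgeR adjusted p = 0.188, over a range of 0.00204 to 1). USP42, USP45 and USP53 had log2 fold changes of -0.11, -0.02 and 0.15, and USP45 changed sign with total counts and with the filter at a mean of 5 CPM. USP53 passed without treated replicate 1 (edgeR adjusted p = 0.0337) and with total counts (0.0298), over a range of 0.0298 to 0.922.

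USP26, USP29, USP43 and USP50 also stayed under the count filter. USP29 had no count in any library, which allows up to 3 counts per library, or between 0.136 and 0.168 CPM. USP26 had 4 counts in all DMSO and 3 in all treated libraries. USP43 had 6 and 13, and USP50 had 1 and 6. Of the exonic bases of USP50, 28.6% overlap USP8 on the opposite strand, so its few reads are uncertain. These limits cover counting error only.

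**Figure D3:**
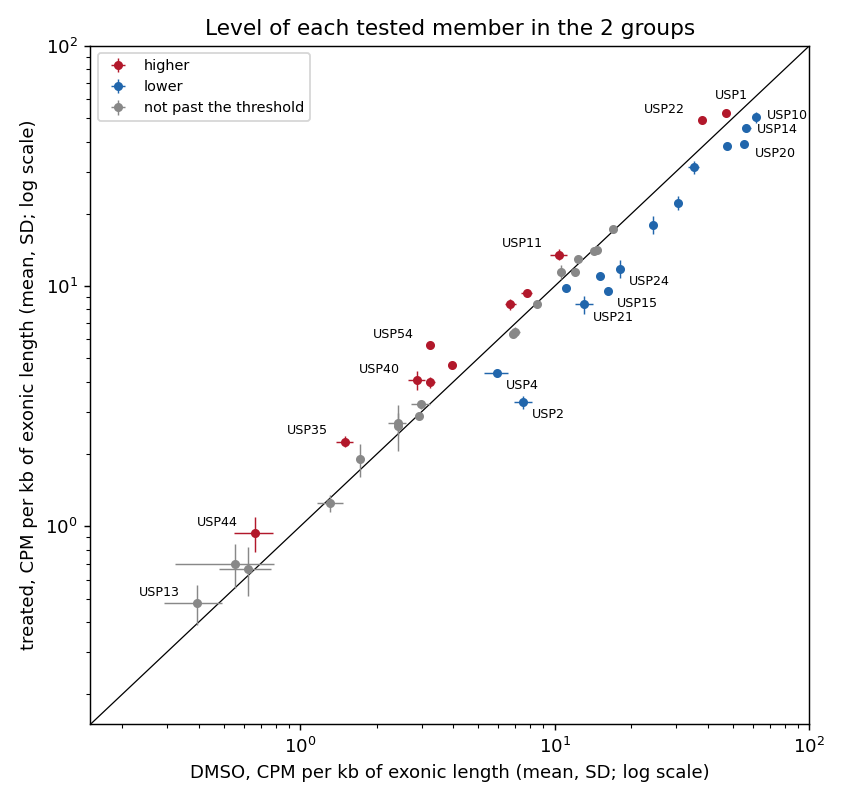
Level of each tested member in DMSO (x axis) and treated cells (y axis) as CPM per kb of exonic length on log scales, mean and SD of 3 libraries; the line marks equal levels. Members span from about USP13 at the lower left to USP10 and USP1 at the upper right, and USP2 lies furthest below the line.

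To compare levels between members, CPM was divided by exonic length in kb, with the union of exons in GENCODE 29 as length. In DMSO cells USP10 led with 61.6 ± 1.67 CPM per kb, followed by USP14 with 56.6 ± 2.15, USP20 with 55.5 ± 1.12, USP39 with 47.7 ± 1.33 and USP1 with 47.2 ± 0.969. The SDs of USP14 and USP20 overlapped, as did those of USP39 and USP1. In treated cells USP1 led with 52.4 ± 0.621 CPM per kb, ahead of USP10 with 50.5 ± 2.55 and USP22 with 49.1 ± 1.01, where the SD of USP10 overlapped with both others and those of USP1 and USP22 lay apart. Of the 10 highest members 9 were the same in both groups. The 5 highest held 41.8% of the summed CPM per kb of the family in DMSO and 41.0% in treated cells. USP13 was the lowest tested member, with 0.393 ± 0.100 CPM per kb in DMSO. A union of exons overstates the length of genes with long rare exons, such as USP15 and USP8, and understates their levels.

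Of the partners of USPs 7 of 12 tested members were lower, 3 were higher and the median log2 fold change was -0.13. Among all tested genes 32.7% were lower, 33.8% were higher and the median was 0.01. Every lower partner except STAM averaged 100 CPM or more across the libraries, and no higher partner did. At that level 57.8% of all tested genes were lower and 23.5% higher. Partners were not compared with genes of like level by a test. RNF41, a ubiquitin ligase stabilised by USP8, rose 1.93-fold, with 46.2, 45.3 and 47.3 CPM in the DMSO libraries and 81.9, 94.8 and 91.2 CPM in the treated ones (log2 fold change 0.95, SE 0.06, edgeR adjusted p = 2.85e-14). It rose beside USP8, and its change was larger. The endosomal adaptors that bind USP8 split, STAM lower (-0.24) and STAM2 higher (0.29). PSMD2, the proteasome subunit on which ubiquitin receptors and USP14 dock, fell beside USP14 (log2 fold change -0.35, SE 0.04, edgeR adjusted p = 1.16e-09). In the SAGA module of USP22, ENY2 (-0.28) and ATXN7L3 (-0.14) fell while ATXN7 rose (0.25), and USP22 rose. The call of ATXN7 was lost with DESeq2 (adjusted p = 0.0654) and in edgeR without DMSO replicate 1 (0.270), DMSO replicate 3 (0.0904), treated replicate 1 (0.0581) or treated replicate 3 (0.0716). With total counts 4 partners were higher, WDR48 among them, and 5 lower, without ATXN7L3 and SART3, against 41.0% and 25.8% of all tested genes.

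A list of other deubiquitinases and related genes, outside the symbol rule, also went both ways. It includes CYLD, USPL1 and PAN2, so it is not limited to other protease families. Of 29 tested members 10 were higher and 12 lower, against 33.8% and 32.7% of all tested genes. Their median log2 fold change was -0.04. TNFAIP3 (A20), an inhibitor of NF-kB, rose 4.44-fold, from 7.08 ± 1.30 to 31.4 ± 1.73 CPM. UCHL5, which like USP14 works on the proteasome, fell from 269 ± 7.53 to 188 ± 8.22 CPM (log2 fold change -0.52, SE 0.04, edgeR adjusted p = 4.02e-12). FAM63A, a protease of long ubiquitin chains, rose by 1.24 on the log2 scale. With total counts 12 were higher and 8 lower, against 41.0% and 25.8%. Leaving out a library gave between 9 and 11 higher and between 9 and 12 lower. Of all genes, between 3868 and 4153 were then higher and between 3800 and 4030 lower. The lower calls of OTUB1, UCHL3, OTUD6B and ZUFSP and the higher call of OTUD5 were lost in some of these fits. BAP1 was called lower and FAM63B higher in some. Of 34 listed members 5 did not pass the count filter. Among ubiquitin precursors and activating enzymes, the activating enzyme UBA1 rose (0.15), the activating enzyme UBA6 (-0.20) and the precursor RPS27A (-0.15) fell, and UBB did not pass (log2 fold change -0.05, 95% interval -0.12 to 0.02, edgeR adjusted p = 0.177). In the whole list of 6, 2 rose and 3 fell, all by small amounts, and with total counts RPS27A did not pass (edgeR adjusted p = 0.143).

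**Figure D4:**
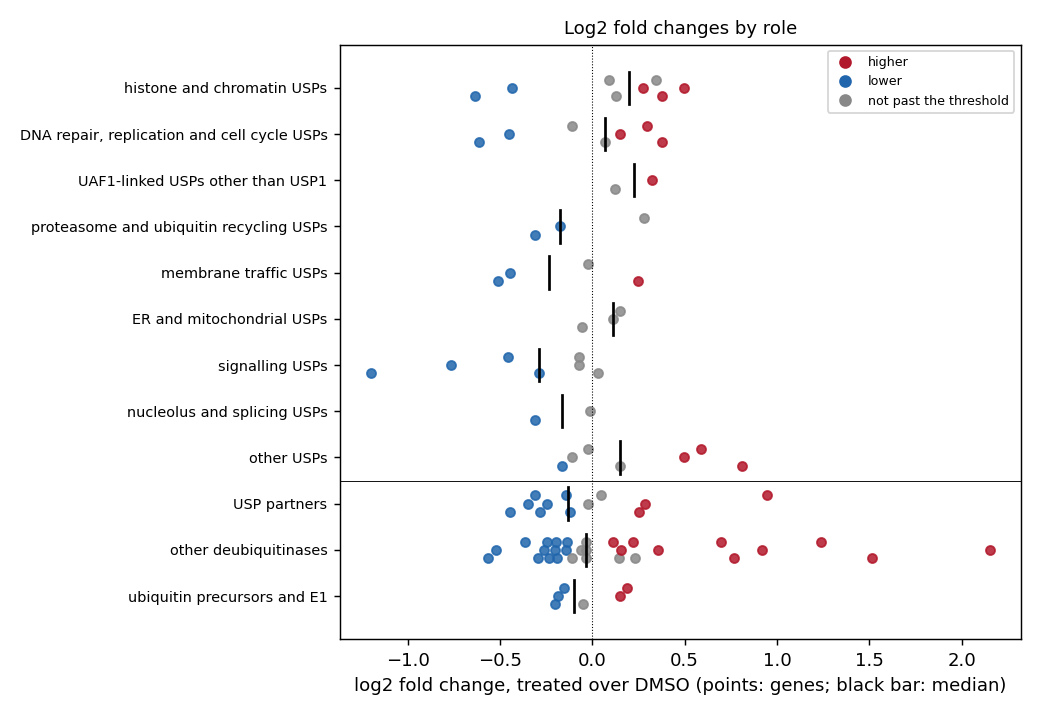
Log2 fold changes of treated over DMSO (x axis) for tested members by role (above the line) and for their partners, other deubiquitinases and ubiquitin genes (below the line); each point is a gene, coloured by its call, and black bars are medians. None of the 7 signalling members was called higher, a description with no test, and TNFAIP3 (2.15) lies furthest to the right.

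In the authors' deposited table, which gives group B over group A without naming them, 47 of the 48 members are listed. For all 43 tested members the fold of the authors' deposited table lay on the same side of 1 as in the edgeR fit. An adjusted p under 0.05 in the authors' deposited table was given for 24 of these 43, and all 24 were among the 25 called here. The exception was USP44, with an adjusted p of 0.0568 in the authors' deposited table. That table lists USP6 with an adjusted p of 0.0208 and no finite fold.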

How the data were processed

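Raw read counts per gene symbol were used as the authors deposited them, for 3 DMSO and 3 treated libraries. STAR, Cufflinks, DESeq2 and the build hg19 are listed without roles, per the submitters' processing notes, and not given in the sources used here are the counting program, strand setting and annotation. Libraries were made from 1000 ng of RNA with a directional mRNA kit, per the labels' protocols. Rows that name no gene held between 10.9% and 13.1% (no feature) and between 2.27% and 2.38% (ambiguous) of all counts and were left out. A second table holds the authors' fold ratio and adjusted p-value per gene, per the file headers, and was used for 1 side-by-side reading.

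The test was run with edgeR 4.0.16 in R 4.3.3 (quasi-likelihood test, treatment as the only term, TMM scaling, filterByExpr with a minimum count of 10), two-sided, adjusted by Benjamini-Hochberg over all 12339 tested genes. Alternatives were total counts, DESeq2 1.42.0, its size factors within edgeR, no filter, a mean of at least 5 CPM, a replicate block, a minimum fold change of 1.2 and leaving out each library. The fits were tested on simulated data. Replicate pairs differed beyond counting noise (chi-square per degree of freedom 2.38 to 6.22). Exonic lengths, overlaps and promoters came from GRCh38 annotations matched by symbol, and 10 members overlap an opposite-strand gene in their exons.

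Values in every library are given for the 6 largest rises and falls among changed members, the 3 members with the highest CPM, USP1, USP5, USP8, USP9X, USP10, USP14, USP22, USP30, USP36, USP39 and sets of paralogues, and the 3 changed genes with the smallest p are named from each other list. Further genes of those lists, such as the partners of a described member, were named with their values in view, and a few genes of the lists are not reported here. Members and lists were chosen with earlier results of these data known. The search for a protein motif in the design was not run.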

Additional observations from a re-analysis of the deposited data

How the results depend on the processing

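Of the 25 changed members 14 kept their direction and call under every alternative that tested them, 5 higher and 9 lower, and 22 did so under all but the minimum fold change of 1.2. The exceptions beyond that were USP5, USP38 and USP44. Against a minimum fold change of 1.2, edgeR called 14 members, 5 higher and 9 lower, 3 partners, 1 higher and 2 lower, and 9 other deubiquitinases, 6 higher and 3 lower. It called 0 of the 6 ubiquitin genes, 0 higher and 0 lower, also 0 at an unadjusted p under 0.05. DESeq2 without a minimum fold called 5 of these genes at an adjusted p under 0.05. Of all genes the test against a minimum fold change of 1.2 called 4765, 2641 higher and 2124 lower. That test asks for more than a difference from 0. Total counts moved the log2 fold changes of all genes by a median of 0.09. With them, USP19 (0.0350), USP31 (0.0188), USP33 (0.0680), USP34 (0.0192), USP36 (0.0794) and USP45 (0.0664) turned from below to above 0, none past the threshold. With a mean of at least 5 CPM, USP33 (0.0194), USP36 (0.0307) and USP45 (0.0177) did so. Leaving out a library in turn gave log2 fold changes from -0.139 to 0.0211 for USP31 and from -0.0898 to 0.255 for USP49. Total counts also called USP9X, USP25, USP46, USP47 and USP53, and the 5 CPM filter USP25 and USP47. Leaving out libraries gave between 24 and 26 changed members. The cause of these shifts was not tested.

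Same-numbered libraries of the groups share only a number: their deviations correlated at 0.000108, -0.00322 and -0.0731, and no library correlated best with its own number. With the replicate block 25 members changed, 11 higher and 14 lower, and 8050 of all genes changed against 8198 without it. The block changed no call of a member. Depth limits USP13, USP27X, USP44, USP49 and USP51, each with fewer than 200 counts in every library.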

Other observations

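Most members with a high CPM fell, and so did most of all genes with a high CPM, a value that grows with gene length as well as with level. Of 15 tested members with a mean of at least 100 CPM over all 6 libraries, 10 fell, 2 rose (USP1 and USP22) and 3 did not pass the edgeR test (USP9X, USP34 and USP47). Of 28 members below 100 CPM, 4 fell (USP2, USP4, USP21 and USP38), 9 rose and 15 did not pass. Among all tested genes, 57.8% fell and 23.5% rose of the 2556 at or above 100 CPM, and 26.1% fell and 36.5% rose of the 9783 below it. This level was chosen after the values were seen, and the split is a description with no test.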
